A study of Homo sapiens with 18 samples.

Results

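The 10 apolipoprotein genes described here, of 19720 genes named on the array, were followed in EpCAM+ hepatocellular carcinoma (HCC) cells treated with disulfiram (DSF) or 5-fluorouracil (5-FU): APOA1, APOA2, APOA4, APOA5, APOB, APOC1, APOC3, APOE, APOH and APOM. The members were the genes on this list, and a probe was taken for a member when its RefSeq accession carried that gene's symbol, which gave 12 probes: APOA1 and APOM had a pair each and the other genes 1 each. Huh1 and Huh7 are human HCC cell lines that keep many hepatocyte products. EpCAM is a surface protein that the study used to sort the fraction it treats as tumor-initiating. Each line had 3 groups of 3 arrays. Control cells received neither drug, DSF groups had 0.1 µM DSF and 5-FU groups 1 µM 5-FU for 48 hours, and live EpCAM+ cells were sorted by flow cytometry. According to the methods DSF went with copper chloride, and what the control cells were given instead is not stated. The labels name the sort after the treatment without stating the order, only EpCAM+ cells were measured, and each line stands for 1 tumor.

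Apolipoproteins are the protein parts of the particles that carry lipid in blood, and the liver is the main source of most of them. APOB is the large scaffold of very-low-density lipoprotein (VLDL), onto which lipid is loaded before secretion. APOA1 and APOA2 are the main proteins of high-density lipoprotein (HDL), while the small exchangeable APOC1, APOC3 and APOE move between particles and set how fast they are broken down or taken up. APOC3 and APOA5 act in opposite directions on the clearance of triglyceride, and APOA4 belongs mainly to intestinal particles. APOM carries a bioactive sphingolipid on HDL, and APOH binds phospholipid surfaces in plasma.

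Values are log2 probe signals relative to the 75th percentile of the same array, so a difference of 1 is a doubling, and levels are compared only within a probe. A gene was called when its adjusted p from limma, over 29894 probes tested, was under 0.05. All 12 probes were well above background on all 18 arrays and no spot was saturated. Between 59.9% and 71.1% of the probes of an array were well above background. Replicates 2 and 3 of Huh1 5-FU and replicates 2 and 3 of Huh7 DSF differed by less than replicate spots within an array did, with 0.687 and 0.932 times the variance that spot noise gives, whereas replicate 1 of these groups differed from them by at least 12.0 times that variance. A pair was counted as 1 sample in group means and SDs (n = 2) where its ratio was at most 1 and another pair of its group differed by more than 2 times spot noise. The limma fit kept all 18 arrays, so every log2 difference, SE and p below counts both arrays of such a pair unless close pairs are said to be averaged. Huh7 control arrays (0.945 to 1.11 times), Huh1 DSF replicates 1 and 2 (1.28 times) and Huh1 control replicates 2 and 3 (1.61 times) were also close to spot noise. The labels do not say whether such arrays share a culture or an RNA extract, and the p-values measure only the spread between these arrays. All of the Huh1 control and 5-FU arrays and replicates 1 and 2 of Huh1 DSF lay on 1 slide. A second slide held replicate 3 of Huh1 DSF, the Huh7 control and 5-FU arrays and replicate 1 of Huh7 DSF, and replicates 2 and 3 of Huh7 DSF were on the last slide. All of the 15 hepatocyte markers, ALB among them, and 8 of 8 progenitor markers, EPCAM and AFP among them, were well above background on all 18 arrays. So were 7 of 13 markers of blood, endothelial and stromal cells, so detection alone does not identify a cell type.

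The 4 genes APOA5, APOA4, APOC3 and APOA1 are neighbors, in that order, on chromosome 11, with no other protein-coding gene listed between them in the RefSeq table (assembly GRCh38.p14). APOE and APOC1 are neighbors on chromosome 19, followed there by APOC4 and APOC2, while APOA2 (chromosome 1), APOB (chromosome 2), APOM (chromosome 6) and APOH (chromosome 17) each stand apart from the other members. RefSeq promoter windows of 300 bases (250 before to 50 after a gene start) matched 7 of the 10 members, with 10 windows in all. The windows of APOA4 and of APOA5 (the one that starts further upstream of its 2) are shown because the chromosome 11 genes had the 4 largest decreases of the members after DSF in Huh7, whereas in Huh1 APOA4 was not called. Both read 5′ to 3′ along the minus strand of GRCh38.p14, APOA4 at chr11:116823255-116823554 and APOA5 at chr11:116792371-116792670, and capitals mark motif matches on either strand.
APOA4: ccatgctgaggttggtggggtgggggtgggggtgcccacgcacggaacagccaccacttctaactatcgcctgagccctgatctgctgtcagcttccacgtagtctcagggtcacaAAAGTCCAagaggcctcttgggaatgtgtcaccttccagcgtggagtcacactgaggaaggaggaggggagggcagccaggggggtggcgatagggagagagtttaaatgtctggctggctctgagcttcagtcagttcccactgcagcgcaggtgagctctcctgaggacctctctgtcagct
APOA5: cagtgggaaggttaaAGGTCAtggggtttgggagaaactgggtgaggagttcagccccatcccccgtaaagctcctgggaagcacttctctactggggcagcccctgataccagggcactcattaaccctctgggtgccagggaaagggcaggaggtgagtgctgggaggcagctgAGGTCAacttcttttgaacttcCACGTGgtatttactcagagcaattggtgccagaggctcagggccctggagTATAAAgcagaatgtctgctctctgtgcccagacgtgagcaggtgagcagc
The motifs searched were a nuclear receptor half-site (AGGTCA), a site of the hepatocyte factor HNF4 (AAAGTCCA), the E-box (CACGTG) and the TATA box (TATAAA). No match overlapped another. The APOA4 window held the HNF4 letters once, at -134 counted from the gene start, and 1.14% of all 35116 promoter windows held them. The APOA5 window held the half-site at 2 places (13.8% of all windows hold at least 1), and the E-box (7.26%) and the TATA letters (11.5%) once each, and the other APOA5 window held the half-site once, at -156. None of these letters was found in the windows of APOA2, APOC1, APOE, APOH or APOM. A match describes the letters of a window and is no evidence of a bound site.

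The first question was how DSF changed these genes in each line. In Huh1, 7 of the 10 genes were called lower and none higher, also none at an unadjusted p under 0.05, where 20.3% of all probes tested were called lower and 23.9% higher. In Huh7, 5 of 10 were called lower and 1 higher, against 19.4% and 27.3% of all probes. APOA1, APOC3 and APOA5 were called lower in both lines. The median difference over the 10 genes was -0.57 in Huh1 and -0.56 in Huh7, whereas the median over all probes was 0.00 and 0.08.

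APOA1 showed the largest decrease in Huh1. Its signal was 4.78, 4.87 and 4.80 on the Huh1 control arrays and 2.78, 2.74 and 2.84 after DSF. The groups did not overlap, and the mean fell from 4.82 ± 0.04 (SD, n = 3) to 2.79 ± 0.05 (SD, n = 3), a log2 difference of -2.03 (SE 0.21, adjusted p = 3.55e-06) or 4.09-fold. In Huh7, where control arrays read 6.68, 6.61 and 6.63 and DSF arrays 5.90, 5.78 and 5.77, the decrease was smaller at -0.82 (SE 0.21, adjusted p = 0.00593). The second APOA1 probe gave -2.08 in Huh1 and -0.73 in Huh7, and both values were called. Within the slide that held both groups, the difference of the main probe was -2.06 in Huh1 and -0.74 in Huh7. All within-slide DSF values here and below rest on DSF replicates 1 and 2 in Huh1 and on the single DSF replicate 1 in Huh7. Fits with the slide as a fixed block rest on that same array wherever DSF in Huh7 takes part. With the slide as a fixed block the Huh7 difference was no longer called (adjusted p = 0.113).

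APOC3, which slows the clearance of triglyceride-rich particles, fell in both lines. In Huh1 it read 2.32, 2.12 and 2.05 in control and 0.47, 0.55 and 0.45 after DSF (log2 difference -1.67, SE 0.26, adjusted p = 0.000114). In Huh7 it read 5.57, 5.56 and 5.55 in control and 2.69, 2.56 and 2.69 after DSF (-2.92, SE 0.26, adjusted p = 8.03e-07). This was a 3.19-fold and a 7.55-fold decrease, with no overlap of the groups in either line. Within the shared slide the differences were -1.65 and -2.88. The APOC3 call was kept in both lines under all alternatives run.

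APOA5, the counterpart of APOC3 in triglyceride clearance, was dim in both lines. It read -3.99, -4.01 and -4.11 in Huh1 control and -5.16, -5.11 and -4.91 after DSF (log2 difference -1.02, SE 0.32, adjusted p = 0.0169). In Huh7 it went from -3.27, -3.57 and -3.56 to -5.59, -6.12 and -5.17 (-2.16, SE 0.32, adjusted p = 7.64e-05). The groups were apart in both lines, and the within-slide differences were -1.09 and -2.12. The Huh1 call was lost without Huh1 DSF replicate 1 (-0.97, adjusted p = 0.0515) and with near-noise arrays averaged (-0.99, adjusted p = 0.11). Another background correction (normexp) brought the APOA5 differences to -0.44 in Huh1 and -1.0 in Huh7, both still called.

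APOA4 is the 4th gene of the cluster on chromosome 11, and its response differed between the lines. In Huh7 all control arrays were close together at -0.29, -0.39 and -0.25, and all DSF arrays lay far below at -3.27, -3.61 and -3.44. The log2 difference was -3.13 (SE 0.47, adjusted p = 0.0001), 8.73-fold, and -2.95 within the slide. In Huh1 the probe was low in every group, with controls at -2.36, -4.24 and -4.53 and DSF arrays at -3.65, -3.90 and -3.53. These groups overlapped, and the difference of 0.02 (95% interval -1.0 to 1.03, adjusted p = 0.982) was not called. Huh1 control replicate 1 stood above the other controls, and without it the difference was 0.69.

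**Figure D1:**
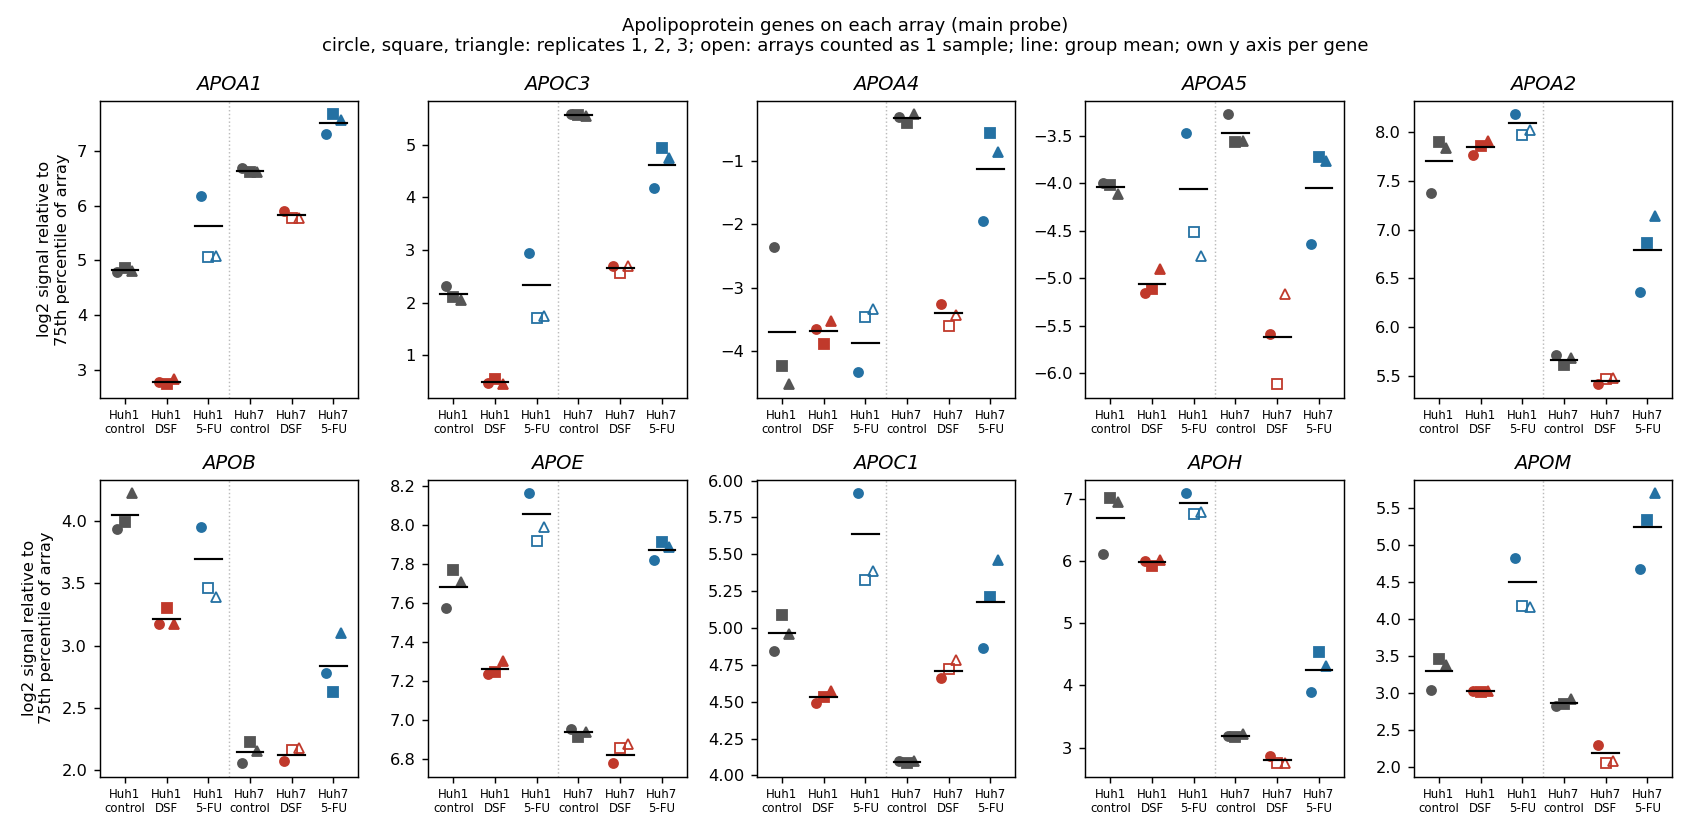
Log2 signal relative to the array's 75th percentile (y axes, 1 scale per gene) of the main probe of each apolipoprotein gene on the 18 arrays, by group (x axes). Circles, squares and triangles are replicates 1, 2 and 3, open symbols are arrays counted as 1 sample and lines are group means with such arrays counted once. APOA1, APOC3 and APOA5 lie lower after DSF in both lines, APOM lies higher after 5-FU in both lines, and replicate 1 of Huh1 5-FU stands apart from its group for most genes.

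Of the 6 members outside the cluster, 4 were called lower in Huh1, with 20.3% of all probes, and 1 in Huh7, with 19.4%. APOC1 was called higher in Huh7. APOB, the VLDL scaffold, fell in Huh1 from 3.94, 3.99 and 4.22 to 3.18, 3.30 and 3.17 (log2 difference -0.84, SE 0.14, adjusted p = 0.000245). In Huh7 it read 2.06, 2.23 and 2.15 in control and 2.07, 2.16 and 2.18 after DSF, and the groups overlapped (difference -0.01, 95% interval -0.31 to 0.30, adjusted p = 0.978). APOE fell in Huh1 by 0.42 (SE 0.07, adjusted p = 0.000171), and in Huh7 the difference was -0.10 (95% interval -0.25 to 0.05, adjusted p = 0.253). With spike-in scaling the Huh1 difference of APOE was -0.29 and was not called (adjusted p = 0.0939).

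APOC1, an exchangeable protein that inhibits lipid transfer and uptake, moved in opposite directions. It went from 4.84, 5.09 and 4.96 to 4.49, 4.53 and 4.57 in Huh1 (log2 difference -0.43, SE 0.15, adjusted p = 0.0303). In Huh7 it went from 4.09, 4.08 and 4.10 to 4.66, 4.72 and 4.78 (0.63, SE 0.15, adjusted p = 0.00341). The groups did not overlap in either line, and the within-slide differences were -0.45 and 0.57. The Huh1 call was the least stable of those after DSF: leaving out Huh1 control replicate 2 or 3, or any single Huh1 DSF array, took it past the threshold (differences from -0.45 to -0.37, adjusted p from 0.0541 to 0.104). The Huh7 call was lost with the slide as a fixed block (adjusted p = 0.0819).

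APOH fell in Huh1 (log2 difference -0.71, SE 0.20, adjusted p = 0.00966), where the controls read 6.11, 7.01 and 6.94 and the DSF arrays 6.0, 5.92 and 6.01. Huh1 control replicate 1 lay close to the DSF arrays, and leaving out Huh1 control replicate 2 took the call past the threshold (-0.55, adjusted p = 0.052). In Huh7 the APOH difference was -0.40 (95% interval -0.83 to 0.03, adjusted p = 0.115). APOM fell in Huh7 from 2.83, 2.85 and 2.91 to 2.30, 2.05 and 2.09 (-0.72, SE 0.22, adjusted p = 0.0153), and its second probe gave -0.61. That call did not hold without Huh7 DSF replicate 2 (-0.67, adjusted p = 0.0518), with close pairs averaged (-0.68, adjusted p = 0.0537) or with the slide as a fixed block (-0.56, adjusted p = 0.239). In Huh1 APOM gave -0.27 (adjusted p = 0.345). APOA2, the second protein of HDL, gave 0.14 in Huh1 (95% interval -0.21 to 0.49, adjusted p = 0.52) and -0.22 in Huh7 (95% interval -0.57 to 0.14, adjusted p = 0.296), and was called in neither line.

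Whether the DSF effect differed between the lines was tested as an interaction. It was called for 6 of 10 genes, and for 40.3% of all probes. Of these probes 52.3% were higher, with 16.9% under spike-in scaling and 68.5% under median scaling. The Huh7 effect was the lower one for APOA4 (Huh7 minus Huh1 -3.14, SE 0.67, adjusted p = 0.00195) and APOC3 (-1.24, SE 0.37, adjusted p = 0.0147). The Huh1 effect was the lower one for APOA1 (1.21, SE 0.30, adjusted p = 0.00563) and APOB (0.83, SE 0.20, adjusted p = 0.00462). APOA4 did not fall in Huh1 (0.02), nor was APOB called in Huh7 (-0.01). The APOA4 mean was -3.71 in Huh1 control and -3.40 in Huh7 after DSF, and the part of the starting level in its interaction was not tested. APOC1 (1.06, SE 0.21, adjusted p = 0.00126) and APOE (0.32, SE 0.10, adjusted p = 0.0161) also differed. With the slide as a fixed block APOB (adjusted p = 0.0601), APOC3 (0.091) and APOE (0.11) were no longer called. Leaving out an array added APOA5 (-1.37 without Huh7 DSF replicate 3, adjusted p = 0.0319) and APOH (0.60 without Huh1 control replicate 1, adjusted p = 0.0266). When all arrays near spot noise were averaged, which leaves a single Huh7 control unit, the adjusted p of the 10 interactions was 0.11 to 0.839. The number of genes called lower after DSF was then 4 in Huh1 (APOA1, APOC3, APOB and APOE), with 10.03% of all probes, and 3 in Huh7 (APOC3, APOA4 and APOA5), with 5.33%, and APOC1 was not called in Huh7.

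The second question was how 5-FU changed the same genes. In Huh7, 7 of 10 were called higher and 1 lower, where 27.3% of all probes tested were called higher and 29.7% lower. In Huh1, 4 of 10 were called higher and 1 lower, against 22.2% and 26.0% of all probes. APOM, APOA1, APOE and APOC1 were called higher in both lines. The median over the 10 genes was 0.26 in Huh1 and 0.91 in Huh7, with -0.03 and -0.05 over all probes. All arrays of each of these comparisons shared a slide, and the control arrays are those of the DSF comparisons. With near-noise arrays averaged, APOE and APOM were still called in Huh1, and in Huh7 APOA1 (adjusted p = 0.0858), APOB (0.0503) and APOC3 (0.126) were not.

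APOM showed the largest increase of the 10 genes in both lines. It read 3.05, 3.46 and 3.38 in Huh1 control and 4.83, 4.18 and 4.17 after 5-FU (log2 difference 1.1, SE 0.22, adjusted p = 0.000843). In Huh7 it went from 2.83, 2.85 and 2.91 to 4.68, 5.35 and 5.71, a difference of 2.38 (SE 0.22, adjusted p = 4.24e-07) or 5.21-fold. All 5-FU arrays lay above all controls in both lines, and the second probe gave 1.21 and 2.5. The call was kept under all alternatives run in both lines.

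APOE, the ligand for uptake of remnant particles, rose from 7.58, 7.77 and 7.71 to 8.16, 7.92 and 7.99 in Huh1 (0.34, SE 0.07, adjusted p = 0.000919). In Huh7 it rose from 6.96, 6.92 and 6.94 to 7.82, 7.91 and 7.89 (0.94, SE 0.07, adjusted p = 4.35e-08). Its neighbor APOC1 rose by 0.58 in Huh1 (SE 0.15, adjusted p = 0.00543) and by 1.09 in Huh7 (SE 0.15, adjusted p = 2.32e-05). The other genes of this chromosome 19 cluster, which are not members, were called higher too: APOC2, the activator of lipoprotein lipase, by 1.89 in Huh1 (SE 0.17, adjusted p = 1.16e-06) and 1.5 in Huh7 (SE 0.17, adjusted p = 4.33e-06), and APOC4 by 1.33 (SE 0.25, adjusted p = 0.000511) and 1.76 (SE 0.25, adjusted p = 2.81e-05). APOC4 and APOC2 lie next to each other, and whether their probes share transcripts was not examined.

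APOA1 read 6.17, 5.06 and 5.07 after 5-FU in Huh1, above controls of 4.78 to 4.87 (difference 0.62, SE 0.21, adjusted p = 0.0268). Replicate 1 of Huh1 5-FU stood above the close pair, and without it the difference was 0.25 (adjusted p = 0.0313). Without Huh1 control replicate 1 (0.60, adjusted p = 0.062) or Huh1 control replicate 3 (0.61, adjusted p = 0.0612) the call was lost. In Huh7 APOA1 rose from 6.61 to 6.68 in control to 7.31, 7.67 and 7.57 (0.88, SE 0.21, adjusted p = 0.00266). APOA2 rose in Huh7 by 1.12 (SE 0.16, adjusted p = 3.91e-05) and gave 0.36 in Huh1 (95% interval 0.01 to 0.71 before adjustment, adjusted p = 0.0869). APOH rose in Huh7 by 1.06 (SE 0.20, adjusted p = 0.000386) and gave 0.18 in Huh1 (adjusted p = 0.482).

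APOB moved in opposite directions with 5-FU. In Huh7 it rose from 2.06, 2.23 and 2.15 to 2.78, 2.63 and 3.10 (0.69, SE 0.14, adjusted p = 0.00075). In Huh1 it fell by 0.45 (SE 0.14, adjusted p = 0.0176), with controls at 3.94, 3.99 and 4.22 and 5-FU arrays at 3.95, 3.46 and 3.39, so that the groups overlapped. The Huh1 call was lost without Huh1 control replicate 3 (-0.36, adjusted p = 0.0775), without Huh1 5-FU replicate 2 (-0.38, adjusted p = 0.0738) or 3 (-0.34, adjusted p = 0.0877), and with close pairs averaged (-0.36, adjusted p = 0.0957).

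The remaining genes of the chromosome 11 cluster did not follow APOA1 after 5-FU. APOC3 fell in Huh7 from 5.57, 5.56 and 5.55 to 4.18, 4.93 and 4.74 (-0.95, SE 0.26, adjusted p = 0.00598). In Huh1 APOC3 gave -0.03 (95% interval -0.58 to 0.53, adjusted p = 0.946), with replicate 1 of 5-FU at 2.95 and replicates 2 and 3 at 1.72 and 1.75. Without that replicate 1 the difference was -0.43 and was called (adjusted p = 0.04). APOA4 was not called in either line, with -0.01 for Huh1 (adjusted p = 0.993) and -0.81 for Huh7 (adjusted p = 0.161). The same held for APOA5, with -0.21 (adjusted p = 0.623) and -0.58 (adjusted p = 0.134). Replicate 1 of Huh7 5-FU was the lowest of its group for both genes, and without it the Huh7 differences were -0.39 for APOA4 and -0.28 for APOA5. Without replicate 1 of Huh1 5-FU the Huh1 difference of APOA5 was -0.60 (adjusted p = 0.0888).

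**Figure D2:**
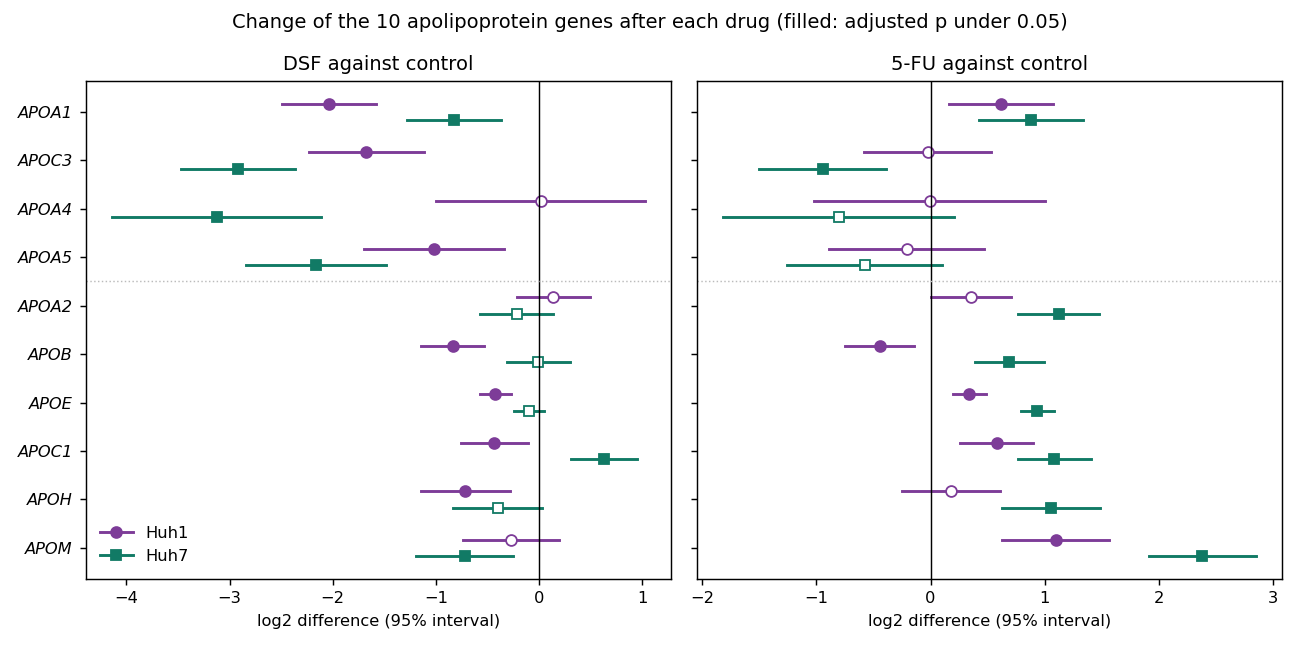
Log2 difference from control (x axes) of each apolipoprotein gene (rows, chromosome 11 cluster above the dotted line) after DSF and 5-FU, with 95% intervals from limma; circles are Huh1, squares Huh7 and filled symbols have an adjusted p under 0.05. APOC3 after DSF lies at -1.67 and -2.92 and APOM after 5-FU at 1.1 and 2.38.

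The scaling of the arrays bears on the 5-FU values. When arrays were scaled on 7 Agilent spike-in probes, the median of all probes moved to 0.79 in Huh1 and 0.94 in Huh7 after 5-FU, and all 10 genes had positive differences in both lines. APOC3 in Huh7 then stood at 0.04 (adjusted p = 0.886) and APOB in Huh1 at 0.38 (adjusted p = 0.0476), so these decreases are relative to the other probes of the array. APOM reached 1.93 and 3.37 on that scale. After DSF the spike-in scaling moved the median of all probes by less, to 0.14 in Huh1 and -0.09 in Huh7. Of all probes called after 5-FU, 46.1% in Huh1 and 47.9% in Huh7 were higher, against 98.4% and 95.7% under spike-in scaling and 29.4% and 35.1% under normexp, which put the median at -0.18 in both lines. After DSF the share was 54.1% and 58.5%, against 74.7% and 34.3% under spike-in scaling, and median scaling gave 33.0% in Huh1 with a median of -0.17.

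**Figure D3:**
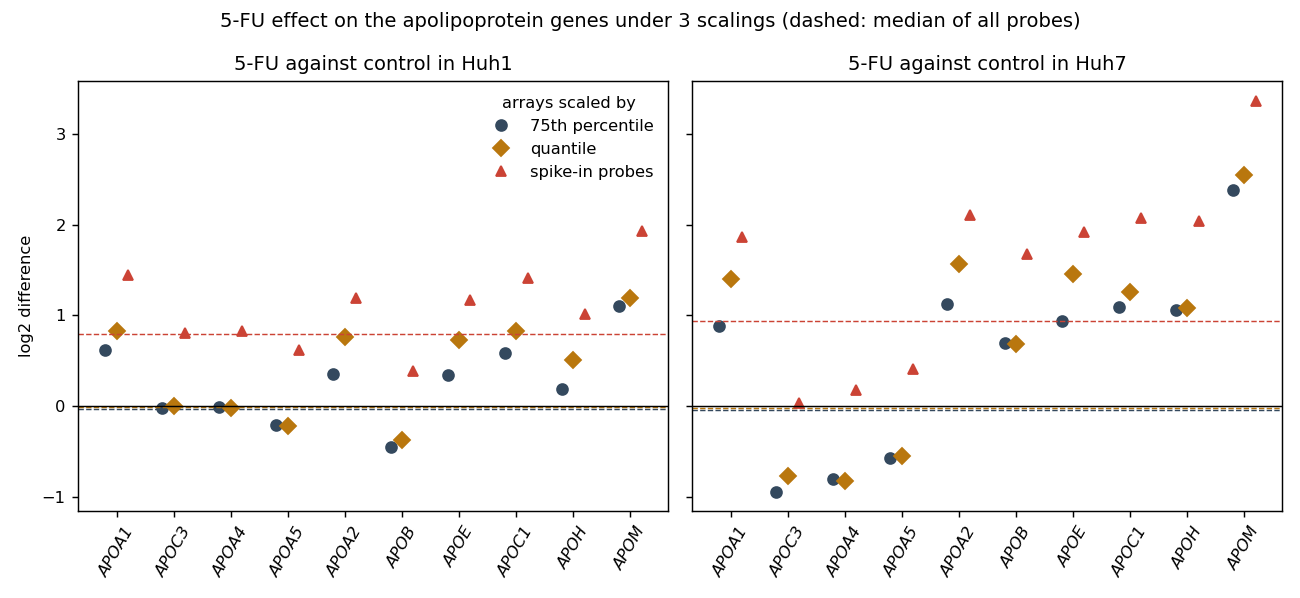
Log2 difference between 5-FU and control (y axis) of each apolipoprotein gene in Huh1 and Huh7 with arrays scaled by the 75th percentile (circles), by quantiles (diamonds) or by spike-in probes (triangles); dashed lines are the medians of all probes, 0.79 and 0.94 under spike-in scaling. APOM lies above the median under each of these scalings in both lines.

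The 5-FU effect differed between the lines for 5 of 10 genes, with 36.6% of all probes called, of which 51.3% were higher and 66.5% under spike-in scaling. The Huh7 effect was the higher one for APOM (Huh7 minus Huh1 1.28, SE 0.31, adjusted p = 0.00488), APOB (1.14, SE 0.20, adjusted p = 0.000526), APOH (0.88, SE 0.28, adjusted p = 0.0254), APOA2 (0.76, SE 0.23, adjusted p = 0.0183) and APOE (0.60, SE 0.10, adjusted p = 0.000274). For APOA1, called higher in both lines, the interaction was 0.26 (95% interval -0.39 to 0.91, adjusted p = 0.546). The APOH interaction was lost when Huh1 control replicate 2 or 3, Huh1 5-FU replicate 2 or 3, or Huh7 5-FU replicate 2 was left out (values from 0.71 to 0.83, adjusted p from 0.0556 to 0.0662). With close pairs averaged 3 of these interactions were called, and with near-noise arrays averaged the adjusted p of all 10 was 0.07 to 0.951. Without Huh1 5-FU replicate 1 the APOA1 interaction was called (0.63, adjusted p = 0.00104), and without Huh1 control replicate 1 that of APOA4 (-1.48, adjusted p = 0.0254).

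DSF and 5-FU were also set against each other. In Huh7 all 10 genes were called lower after DSF than after 5-FU, where 25.0% of all probes were called lower and 35.6% higher. In Huh1 8 of 10 were called lower and none higher, against 20.6% and 28.7%. The largest differences were APOM in Huh7 (-3.10, SE 0.22, adjusted p = 3.44e-08, 8.57-fold) and APOA1 in Huh1 (-2.65, SE 0.21, adjusted p = 2.83e-07, 6.28-fold). APOA4 in Huh1 (0.02, adjusted p = 0.974) and APOA2 in Huh1 (-0.22, adjusted p = 0.299) were not called. These values use the same treated arrays as the comparisons with control. Of all probes called, 58.2% in Huh1 and 58.8% in Huh7 were higher, against 6.83% and 3.30% under spike-in scaling (medians -0.61 and -1.04), and in Huh1 70.8% under normexp and 40.7% under median scaling. In Huh1 the APOA5 call (-0.81, adjusted p = 0.0465) was lost without Huh1 5-FU replicate 1 (-0.42, adjusted p = 0.235) or any one Huh1 DSF array (from -0.88 to -0.76), and the APOB call (-0.39, adjusted p = 0.0346) without Huh1 5-FU replicate 1 (-0.21, adjusted p = 0.172) or Huh1 DSF replicate 1 or 3 (-0.37 for both). The APOC1 call in Huh7 (-0.46, adjusted p = 0.017) was lost without Huh7 5-FU replicate 3 (-0.31, adjusted p = 0.0896).

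The untreated lines were also compared, and 70.69% of all probes were called between them. In Huh7 control cells 3 genes were called higher and 5 lower than in Huh1 control cells, with 34.5% and 36.2% of all probes. APOC3 (3.40, SE 0.26, adjusted p = 1.79e-08), APOA4 (3.40, SE 0.47, adjusted p = 1.28e-05) and APOA1 (1.82, SE 0.21, adjusted p = 2.13e-06) were higher in Huh7. APOH was lower in Huh7, with 6.11, 7.01 and 6.94 in Huh1 against 3.18, 3.17 and 3.21 in Huh7 (log2 difference -3.5, SE 0.20, adjusted p = 6.94e-10). APOA2 (-2.04), APOB (-1.91), APOC1 (-0.87) and APOE (-0.75) were lower as well, with SEs of 0.07 to 0.16. APOA5 (0.58, adjusted p = 0.118) and APOM (-0.43, adjusted p = 0.0947) were not called. The control arrays of the lines lay on different slides, and 1 Huh1 array (DSF replicate 3) shared a slide with Huh7 controls. With the slide as a fixed block, which rests on that array, the same 8 differences were called, APOH at -3.55 and APOC3 at 3.46 among them.

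Genes that assemble, remodel, take up or regulate these proteins were described from lists, with counts of called genes and pairs of values given as Huh1 and then Huh7. The shares of all probes stand beside every list and marker count below, and no list was tested as a set. After DSF 20.3% were lower and 23.9% higher in Huh1, and 19.4% and 27.3% in Huh7. After 5-FU 26.0% were lower and 22.2% higher in Huh1, and 29.7% and 27.3% in Huh7. Of 20 genes for lipoprotein assembly and secretion, 12 fell and 1 rose with DSF in Huh1 while 12 fell and 0 rose in Huh7 (medians -0.30 and -0.55). MTTP, the transfer protein that loads lipid onto APOB, fell by 1.44 in Huh1 (SE 0.10, adjusted p = 9.95e-08) and by 0.67 in Huh7 (SE 0.10, adjusted p = 0.000114). CIDEB, which promotes VLDL lipidation (-1.37 and -2.47), TM6SF2 (-1.02 and -1.37) and the cholesterol ester-forming enzyme SOAT2 (-1.07 and -1.28) fell in Huh1 and Huh7. With 5-FU 11 fell and 4 rose in Huh1 while 9 fell and 5 rose in Huh7 (medians -0.23 and -0.30). The coat protein genes SEC24D (-1.11 and -1.92) and SEC23A (-0.59 and -0.64) and the triglyceride synthase DGAT1 (-0.78 and -0.53) fell. ACAT2, a listed gene distinct from SOAT2, rose (0.40 and 0.23). MTTP fell in Huh1 (-0.73, adjusted p = 4.67e-05) and gave 0.10 in Huh7 (adjusted p = 0.42).

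Of 14 tested genes for lipoprotein receptors and uptake, 8 fell and 1 rose with DSF in Huh1 while 10 fell and 2 rose in Huh7 (medians -0.37 and -0.43). The remnant receptor LRP1 (-0.80 and -1.36) and the sorting receptor SORT1 (-0.84 and -0.51) fell. After 5-FU LRP8 (-1.28 and -2.15), VLDLR (-0.43 and -1.48) and LRP1 (-0.75 and -0.74) fell, and LSR rose (0.90 and 0.62). The 5-FU count was 7 down and 3 up for Huh1 and 4 down and 6 up for Huh7 (medians -0.20 and 0.10).

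Of 18 tested genes for lipolysis, remodeling and efflux, 9 fell and 5 rose with DSF in Huh1 while 12 fell and 3 rose in Huh7 (medians -0.26 and -0.62). The HDL enzyme PON1 fell (-1.59 and -0.57). ANGPTL8, an inhibitor of lipoprotein lipase, fell in Huh1 (-1.39), and in Huh7 its probe was well above background on all control arrays and on 0 of 3 DSF arrays (at least 4.78-fold lower, adjusted p = 0.000284). The sterol exporter ABCG8 fell in Huh7 (-2.14). In Huh1 its probe was well above background on 1 of 3 control arrays and 0 of 3 DSF arrays, so no fold is given. A bound such as that of ANGPTL8 sets the mean of the brighter group against the lowest signal well above background on each array of the dimmer one, or the probe's own signal where that was higher. The adjusted p beside a bound is that of the limma fit to the measured signals. With 5-FU 5 fell and 4 rose in Huh1 while 4 fell and 7 rose in Huh7 (medians -0.02 and 0.32). The lipase gene LIPG, whose product acts on HDL, rose in Huh7 (0.80), and in Huh1 its probe was well above background on 0 of 3 control arrays and all 5-FU arrays (at least 4.07-fold higher, adjusted p = 9.99e-08).

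Of 28 regulators of apolipoprotein genes, 14 fell and 7 rose with DSF in Huh1 while 10 fell and 4 rose in Huh7 (medians -0.11 and -0.12). HNF4A, a nuclear receptor that drives many hepatocyte genes, fell by 0.90 in Huh1 (SE 0.09, adjusted p = 2.23e-06) and by 0.67 in Huh7 (SE 0.09, adjusted p = 3.37e-05). PPARA (-1.03 and -1.47), MLXIPL (-0.91 and -1.28) and the bile acid receptor NR1H4 (-0.61 and -1.01) fell in both lines, and ESRRA rose (0.32 and 0.34). NR0B2, a repressor that NR1H4 induces, rose in Huh1 (1.27, SE 0.37, adjusted p = 0.011) and gave 0.33 in Huh7 (adjusted p = 0.482). After 5-FU NR0B2 rose by 3.76 and 4.0 (SE 0.37, adjusted p = 1.87e-06 and 3.97e-07) and FOXA3 by 0.64 and 0.46. SP1 (-0.31 and -0.87) and SREBF1 (-0.66 and -0.50) fell. HNF4A gave -0.12 in Huh1 (adjusted p = 0.302) and fell by 0.49 in Huh7 (adjusted p = 0.000302), and NR1H4 fell by 0.30 in Huh1 (adjusted p = 0.0184) and gave -0.00 in Huh7 (adjusted p = 0.999). The 5-FU count was 8 down and 6 up for Huh1 and 11 down and 7 up for Huh7 (medians 0.00 and -0.12). Of all probes, 26.0% were down and 22.2% up in Huh1, and 29.7% and 27.3% in Huh7.

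Of 14 tested genes on the list of other apolipoprotein genes, 2 fell and 2 rose with DSF in Huh1 while 6 fell and 1 rose in Huh7 (medians -0.23 and -0.31). Of all probes, 20.3% fell and 23.9% rose in Huh1, and 19.4% and 27.3% in Huh7. SAA4, a protein of HDL, fell (-0.79 and -2.36). With 5-FU 1 fell and 5 rose in Huh1 while 2 fell and 5 rose in Huh7 (medians 0.10 and -0.12). Beside APOC2 and APOC4, APOLD1 rose by 0.29 and 1.91.

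**Figure D4:**
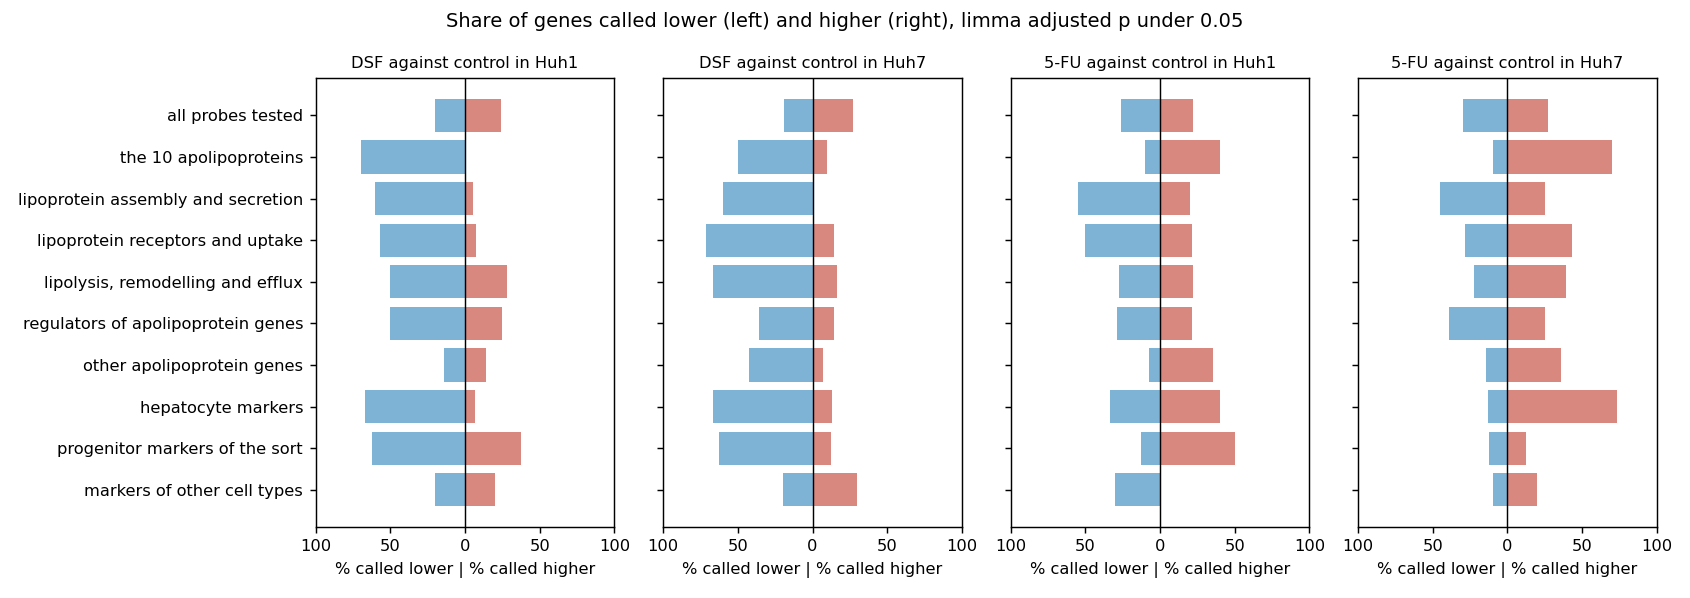
Share of genes called lower (to the left) and higher (to the right), in percent of those tested (x axes), for all probes, the 10 apolipoproteins and each list (rows) in the 4 comparisons with control. After DSF in Huh1 the apolipoproteins had 7 of 10 called lower against 20.3% of all probes, and after 5-FU in Huh7 they had 7 of 10 called higher against 27.3%.

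The hepatocyte markers were mostly other secreted liver proteins. Of 15 hepatocyte markers 10 fell and 1 rose with DSF in Huh1 while 10 fell and 2 rose in Huh7 (medians -0.55 and -0.35). AHSG (-1.15 and -2.59), HP (-0.94 and -1.56), HPX (-1.51 and -0.66) and ALB (-0.25 and -0.33) fell. With 5-FU 5 fell and 6 rose in Huh1 while 2 fell and 11 rose in Huh7 (medians 0.27 and 0.53), with VTN (1.22 and 1.82), FGB (0.78 and 1.4) and FGA (1.28 and 0.33) higher and HP (-1.78 and -1.47) and ALB (-0.34 and -0.35) lower. The log2 of the summed hepatocyte markers was 10.5 to 10.6 in Huh1 control, 10.1 to 10.2 after DSF and 10.3 to 10.5 after 5-FU. In Huh7 it was at most 10.03 in control, 9.83 to 9.87 after DSF and 10.3 to 10.4 after 5-FU.

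Among the progenitor markers ANPEP (-1.31 and -1.27), GPC3 (-1.37 and -0.91) and EPCAM (-0.66 and -0.50) fell after DSF in both lines. In all, 5 of 8 fell and 3 rose with DSF in Huh1, and 5 fell and 1 rose in Huh7. With 5-FU 1 fell and 4 rose in Huh1, and 1 fell and 1 rose in Huh7. EPCAM is the gene of the sort, so its level can reflect the gate as well if the sort followed the treatment. Of 13 markers of blood, endothelial and stromal cells, 7 were well above background on all 18 arrays: PTPRC, CD14, PECAM1, CDH5, VIM, DES and ZEB1. VWF was on 13, COL1A1 on 11, CD3E on 6, ACTA2 on 4, COL1A2 on 2 and COL3A1 on 1. Of the 10 tested, 2 fell and 2 rose with DSF in Huh1, and 2 fell and 3 rose in Huh7. With 5-FU 3 fell and 0 rose in Huh1, and 1 fell and 2 rose in Huh7. VIM rose (0.38 and 0.72) and CD14 fell (-0.69 and -0.77) after DSF. The log2 of the summed 13 markers went with DSF from 5.92 to 6.10 in Huh1 control to 6.29 to 6.36, and from 5.51 to 5.57 in Huh7 control to 6.20 to 6.27, and it was 5.35 to 5.47 in Huh1 and 5.77 to 6.01 in Huh7 after 5-FU. VIM alone had a mean of 5.85 in Huh1 control and 6.23 after DSF, and of 5.40 and 6.13 in Huh7, so the sum follows VIM. The median over the 10 markers tested was -0.0046 in Huh1 and 0.26 in Huh7 after DSF, and -0.19 and 0.0062 after 5-FU. The part of these markers in the apolipoprotein values was not tested. Fewer cells of a kind and less RNA per cell cannot be told apart in these bulk samples.

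The genes most like each member were found by Pearson correlation over the 18 arrays, after the mean of each line was taken off, among 12711 genes well above background on all arrays. The arrays fall into treatment groups, so the values describe a shared treatment pattern. PCK1, the gluconeogenic enzyme, and ARG1, the urea cycle arginase, were most like APOC3 (r = 0.98 for both), and ARG1 and SMIM14 most like APOA5 (0.94 for both). APOA1 was closest to OXER1 and ANXA9 (0.99), APOE to DONSON and SLC22A9 (0.99), and APOM to TM4SF5 and NAT2 (0.99). APOH was nearest to SERPINI1 (0.97) and GGH (0.96), APOA2 to VASN and RNF168 (0.96), and APOB to ASB9 and ONECUT2 (0.95). For APOC1 they were ZDHHC14 and TATDN3 (0.95), and for APOA4 RASGRP2 and TUBA4A (0.91). Among the members, APOC3 and APOA5 had r = 0.96, APOE and APOM 0.95, and APOA2 and APOM 0.94, whereas APOA4 and APOC1 had -0.23.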

How the data were processed

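RNA of sorted cells was labelled with Cy3 and hybridised to 18 one-colour Agilent 60K arrays. Per the labels, intensities were read with Agilent Feature Extraction 10.7.1.1, and the deposited gProcessedSignal intensity is background-subtracted. The authors' deposited table, normalized in GeneSpring, holds linear intensities divided by each array's 75th percentile; its log2 values lay within 0.05 of those computed here for 100% of probes, and it was an alternative. Replicate spots were averaged after outlier spots were left out, log2 intensities were centred on each array's 75th percentile, and a probe was tested if some group had it well above background throughout (29894 of 42405). Genes were named through RefSeq accessions. limma 3.58.1 (R 4.3.3) fitted 6 group means to all 18 arrays, with Benjamini-Hochberg adjustment, after a test on simulated data. A gene's brightest probe was its main probe. The exact rank test on 3 against 3 arrays cannot go below p = 0.1 and was not used.

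Groups came from the sample titles. The members and lists were chosen with earlier results of these data known. Named genes were all members, at most 3 genes a list, drug and direction called alike in both lines with groups apart, 5 preset genes, and the 2 genes most like each member; some genes that this rule names are not reported here. Alternatives covered background correction (normexp on median spot signals with offset 50, since mean signals were not used here), scaling, filter, slide, replicate block, probe choice, array weights and leaving out each array. Averaging close or near-noise arrays was added after seeing the data.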

Additional observations from a re-analysis of the deposited data

Results flagged for a closer look

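The difference between lines in the DSF effect, Huh7 minus Huh1 on the log2 scale, passed the interaction test in limma for 6 of 10 genes and for 40.3% of all probes. The genes were APOA4 (-3.14, adjusted p = 0.00195), APOC3 (-1.24, adjusted p = 0.0147), APOA1 (1.21, adjusted p = 0.00563), APOC1 (1.06, adjusted p = 0.00126), APOB (0.83, adjusted p = 0.00462) and APOE (0.32, adjusted p = 0.0161). For APOC1 the 3 Huh1 DSF arrays lay below and the 3 Huh7 DSF arrays above their controls. The 5-FU effect differed for 5 of 10 genes and for 36.6% of all probes. The genes were APOM (1.28, adjusted p = 0.00488), APOB (1.14, adjusted p = 0.000526), APOH (0.88, adjusted p = 0.0254), APOA2 (0.76, adjusted p = 0.0183) and APOE (0.60, adjusted p = 0.000274). With the slide as a fixed block the DSF differences of APOA1, APOA4 and APOC1 were still called and those of APOB, APOC3 and APOE were not. That block had 29.09% of all probes called for the DSF interaction and 37.93% for the 5-FU interaction. All 5 of the 5-FU differences were called with that block, since the control and 5-FU arrays of a line shared a slide.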

How the results depend on the processing

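Of 63 called differences of single genes, 36 kept their call under every alternative run, and 2 changed sign in at least 1, both under spike-in scaling. With near-noise arrays averaged, genes called lower after DSF numbered 4 in Huh1 and 3 in Huh7, with 0 higher in Huh7; called after 5-FU were 2 higher and 0 lower in Huh1 and 0 lower in Huh7, and both interactions had 0 (DSF higher 0, DSF lower 0, 5-FU higher 0). Of all probes, 10.03% and 5.33% were then lower after DSF in Huh1 and Huh7, and the interactions had 10.9% (DSF) and 11.25% (5-FU) called. With near-noise arrays averaged, 12.4% of all probes were higher and 14.06% lower after 5-FU in Huh1. With the slide as a fixed block DSF gave 0 higher and 3 lower in Huh7, with 17.58% and 11.02% of all probes. The DSF interaction then had 2 higher and 1 lower, with 15.61% and 13.48% of all probes. Spike-in scaling gave 8 higher and 0 lower for 5-FU in Huh1, where it had 74.83% of all probes higher and 1.22% lower. It gave 0 lower for 5-FU in Huh7, with 3.47% of all probes, and 2 higher for the DSF interaction, with 4.72%. For 5-FU in Huh1, 0 were lower under quantile scaling (22.41% of all probes) and with close pairs averaged (21.78%), and 2 under array weights (33.96%). Leaving out 1 array gave 0 to 2. Normexp gave 2 lower for 5-FU in Huh7, with 44.71% of all probes. Array weights gave 4 lower for the DSF interaction, with 28.78% of all probes. For the 5-FU interaction close pairs averaged gave 3 higher, with 16.71% of all probes. There was 1 lower under normexp (18.33% of all probes), under array weights (24.99%), with close pairs averaged (15.14%) and with probes above background on every array. Leaving out 1 array gave 0 to 1 lower.

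Some differences turned in sign. APOA4 after DSF in Huh1 was -0.088 under normexp, -0.17 under quantile and -0.16 under median scaling, -0.065 with the slide as a fixed and -1.62e-05 as a random block, and -0.28 with near-noise arrays averaged. APOA2 there was -0.031 under median scaling, and APOB after DSF in Huh7 was 0.035 under array weights. Under spike-in scaling the 5-FU differences in Huh1 were 0.82 for APOA4, 0.62 for APOA5, 0.38 for APOB and 0.80 for APOC3, and in Huh7 0.18 for APOA4, 0.41 for APOA5 and 0.039 for APOC3. APOC3 after 5-FU in Huh1 was 0.0090 under normexp, 0.18 with close pairs and 0.14 with near-noise arrays averaged. Array weights gave 0.86 for APOA4 and -0.11 for APOH after 5-FU in Huh1, and 0.17 for the 5-FU interaction of APOA5. APOA4 between DSF and 5-FU in Huh1 was -0.15 under quantile, -0.13 under median and -0.67 under spike-in scaling, -0.0585 with the slide as a fixed block and -0.30 under array weights. When single arrays were left out, the Huh1 range after DSF was -0.40 to 0.69 for APOA4 and -0.022 to 0.24 for APOA2, and the Huh7 range -0.050 to 0.036 for APOB. After 5-FU in Huh1 it was -0.42 to 0.67 for APOA4, -0.60 to 0.047 for APOA5, -0.43 to 0.18 for APOC3 and -0.11 to 0.35 for APOH. It was -0.29 to 0.21 for APOA4 between the drugs in Huh1 and -0.63 to 0.019 for the 5-FU interaction of APOA5. The causes were not tested.

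Replicate numbers did not pair the samples: the correlations computed for same-numbered arrays of 2 groups lay between -0.09 and 0.02. These are not correlations of the signals themselves, which reached 0.99 between arrays. With the replicate number as a block, 7 genes were lower after DSF in Huh1 and 5 in Huh7, as without it, while the count lower after DSF than after 5-FU in Huh1 went from 8 to 6 and that of the 5-FU interaction from 5 to 4. Signal over background limits APOA5, whose DSF difference in Huh7 was -2.16 and under normexp -1.0.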
